A study of Mus musculus with 8 samples.

Results

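Among the cells of the adult mouse tibia, 65 barcodes were taken as Col10a1 or Ihh chondrocytes, and these were set apart by whether they held the transcript of the ligand Ihh. A barcode was included when it had at least 1600 detected genes, at most 20% of its unique molecular identifiers (UMIs, one per captured RNA molecule) in mitochondrial genes, no UMI of the leukocyte gene Ptprc, and at least 5 UMIs of Col10a1 and Ihh together. The 65 cells were 1.46% (95% interval 1.13 to 1.85%) of the 4460 barcodes that met the gene and mitochondrial limits, out of 12564 deposited. Of them, 33 held at least 1 Ihh UMI (Ihh-positive) and 32 held none (Ihh-negative). The reference was 229 other chondrocytes, which met the same limits with at least 10 Col2a1 UMIs and fewer than 5 UMIs of Col10a1 and Ihh together.

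The study asked how cells of the hypertrophic cartilage lineage take part in making bone, and used droplet single-cell RNA sequencing of trabecular bone with part of the growth plate. All cells came from the tibia of 8-week-old (P56) untreated mice that were MMP14 F/+ and bore the alleles COL10A1cre and R26-tdT together with the transgene Col1a1-2.3-GFP. Every cell compared here, reference cells included, therefore came from mice with 1 floxed Mmp14 allele and a Cre recombinase under the control of Col10a1. These mice also bore a tdTomato reporter at Rosa26 that Cre switches on, and GFP under a Col1a1 promoter fragment. Tissue from 3 mice was pooled, 8 samples of 1 group were labelled, and no barcode named its sample or mouse. The 65 cells were thus 1 sample without replicates. No test was made, and every interval below (exact Poisson for UMIs, exact conditional for ratios, exact binomial for shares) is a 95% interval that covers counting error only.

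In the growth plate, chondrocytes leave the cell cycle and enlarge, first as pre-hypertrophic cells that secrete Indian hedgehog (Ihh) and bear the receptor Pth1r, and then as hypertrophic cells that deposit type X collagen (Col10a1) and a matrix that mineralises. Ihh acts on neighbouring cells through Ptch1 and Smo and keeps up the production of PTHrP (Pthlh), which signals back through Pth1r and delays hypertrophy. Articular chondrocytes at the joint surface follow another programme, marked by lubricin (Prg4) and the cartilage intermediate layer protein Cilp, and normally stay unmineralised.

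The class of a cell was set by its own UMIs, so the levels of Col10a1 and Ihh are a description of the choice. Ihh (chr1:74945315-74951672, minus strand, mm10) held 708 UMIs over the 33 Ihh-positive cells, with a lowest, median and highest value of 1, 17 and 71 per cell. Of these cells, 3 held 1 to 3 Ihh UMIs and so stood just inside the limit. Col10a1 (chr10:34389981-34397085, plus strand) gave 0, 445 and 1129 UMIs per Ihh-positive cell, with 3 cells at 0, and 5, 56.5 and 675 UMIs per Ihh-negative cell. The 2 classes overlapped in Col10a1, with the Ihh-negative cells lower at the median. At the lower limit, 6 of the 65 cells held 5 to 8 UMIs of Col10a1 and Ihh together, and 19 of the 229 other chondrocytes held 1 to 4. The remaining 210 other chondrocytes held none. Of all kept barcodes without Ptprc, whatever their Col2a1, 52 held 1 to 4 UMIs of the 2 genes. A further 14 barcodes met the Col10a1 and Ihh limit but held Ptprc and were left out.

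The Ihh-positive cells were the deeper ones. Their total ran from 13334 to 46423 UMIs with a median of 31839, against 5363 to 25943 with a median of 12850 in the Ihh-negative cells. The median number of detected genes was 4514 and 2921, respectively. Levels are therefore given as CPM, the UMIs of a gene per 1000000 summed UMIs of a class, and no cell of either class, and none of the other chondrocytes, was called a doublet. Ambient RNA was gauged from 1323 neutrophil-type barcodes (Ptprc held, 100 or more UMIs of S100a8 and S100a9) with a median of 12921 UMIs. Of these, 221 were called doublets, and single barcodes held up to 131229 CPM of chondrocyte markers, so the shares given for them may include chondrocyte RNA. In the 1102 not called, the share with a Prg4 UMI was 8.35% and that with a Pth1r UMI 2.45%, against 8.24% and 2.34% of all. Erythroid markers summed to 9037 CPM in the Ihh-positive and 26464 CPM in the Ihh-negative cells, mostly from 4 cells (2 in each class) with 1000 or more Hbb-bs UMIs. The part of this red cell RNA in the results was not tested, and values without these cells are given for some results only.

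The marker lists divided the classes. All 5 articular markers (Prg4, Cilp, Cilp2, Cytl1 and Creb5) were lower by 2-fold or more in the Ihh-positive than in the Ihh-negative cells, and summed to 846 and 108581 CPM. Of the 9 hypertrophic and pre-hypertrophic markers, 8 were higher by 2-fold or more in the Ihh-positive cells, all but Fgfr3, and 2 of these 8 are the genes of the rule. Over all 3270 genes with at least 50 UMIs in the 2 classes together, 17.0% were higher and 13.1% lower by that fold in the Ihh-positive cells, with a median log2 ratio of 0.17. These shares depended on the scaling. When genes above 1% of the UMIs were left out of the totals, 363 genes were higher and 595 lower, against 557 and 428 with all genes, and the median log2 ratio was −0.10. The Ihh-negative cells were thus called Col10a1 chondrocytes by the rule, while their leading genes were those of articular cartilage. Markers of neutrophils stood at 585 and 584 CPM in the 2 classes, against 276760 CPM in the neutrophil-type barcodes. The lists for marrow stroma, endothelial cells, pericytes and T cells each summed to under 11 CPM in both classes. Fibroblast and tendon markers summed to 348 CPM in the Ihh-positive and 4283 CPM in the Ihh-negative cells, nearly all of it Dcn, and to 9245 CPM in other chondrocytes with Prg4.

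Prg4 (chr1:150449412-150466165, minus strand), the lubricant of the joint surface, held 7 UMIs in 5 of the 33 Ihh-positive cells, with at most 3 in a cell. In the Ihh-negative cells it held 29916 UMIs, with 0, 683.5 and 3494 per cell, which is 66630 CPM (65877 to 67389). The classes overlapped only in 2 Ihh-negative cells that held no Prg4. The share of Ihh-positive cells with a Prg4 UMI was 15.2% (5.11 to 31.9%), and 8.24% of neutrophil-type barcodes held one too. After every cell was thinned to 4000 UMIs the shares were 2.88% and 3.38%, so the share of Ihh-positive cells was not above that of the neutrophil-type barcodes. Cilp (chr9:65265180-65280605, plus strand) followed the same division, with 4 UMIs in the Ihh-positive cells and 6062 in the Ihh-negative cells, where the values per cell were 0, 175.5 and 414. Cilp2, its paralog, gave 1.95 and 1272 CPM, and Creb5, a regulator of Prg4 in joint cartilage, 20.4 and 508 CPM. The plot of Col10a1 against Prg4 shows the classes as separate clouds.

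**Figure D1:**
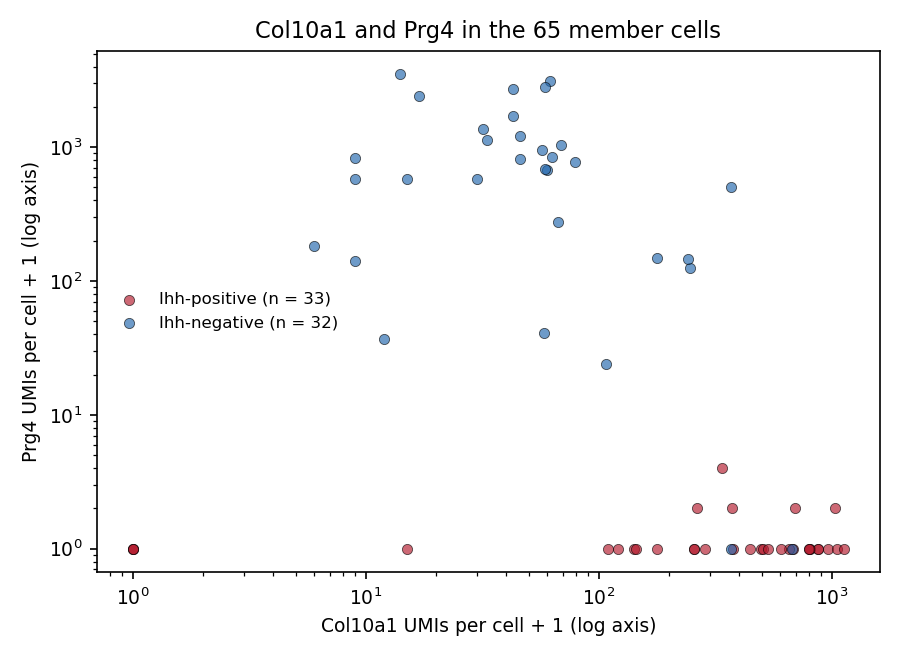
Col10a1 and Prg4 UMIs plus 1 in each of the 65 cells, both axes logarithmic, with Ihh-positive and Ihh-negative cells in different colours. The 33 Ihh-positive cells hold at most 3 Prg4 UMIs, 30 Ihh-negative cells hold 23 or more, and 2 Ihh-negative cells without Prg4 lie among the Ihh-positive cells.

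Cytl1, a secreted cytokine-like protein of cartilage, was the articular marker with the highest level in the Ihh-positive cells. It was at 9, 278.5 and 1330 UMIs per Ihh-negative cell and at 0, 4 and 147 UMIs per Ihh-positive cell, with a UMI in all 32 and in 23 of 33 cells (5.67% of neutrophil-type barcodes). The log2 ratio of Ihh-positive to Ihh-negative cells was −5.04. The Ihh-positive cells nevertheless stood above the Prg4-poor reference, at 813 against 120 CPM, a log2 ratio of 2.76.

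Because the classes fell apart by Prg4, the other chondrocytes were divided by the same gene after the cells had been seen, into 169 with fewer than 10 Prg4 UMIs and 60 with 10 or more. Prg4 itself is therefore no result against either. The Ihh-positive cells were set against the 169 and the Ihh-negative cells against the 60. Of 6644 genes, 5.43% were higher and 15.1% lower by 2-fold or more in the Ihh-positive cells than in the Prg4-poor chondrocytes (median log2 ratio −0.18). Of 3073 genes, 3.51% were higher and 5.3% lower in the Ihh-negative cells than in the Prg4-rich chondrocytes (median −0.12). Taken as one group, the 65 cells were higher for 3.94% and lower for 9.74% of 7538 genes against all 229 other chondrocytes (median −0.15). Of the 169, 9 cells held 100 or more Col1a1 UMIs, and these carried 14094 of the 14434 Bglap UMIs of that reference. None of the 65 cells reached that Col1a1 level.

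The 2 Ihh-negative cells without Prg4, which held 675 and 370 UMIs of Col10a1, a gene of the rule, lay within the range of the Ihh-positive cells in Pth1r, Ibsp, Col2a1 and Alpl. They held 34 and 39 Pth1r UMIs, 778 and 132 Ibsp UMIs, 1331 and 1412 Col2a1 UMIs, and 40 and 51 Alpl UMIs. The other 30 Ihh-negative cells held between them 4 Pth1r UMIs, 10 Alpl UMIs and 169 Ibsp UMIs. The Ihh-negative level of several growth plate genes therefore rested on 2 cells. Ratios without them are added below for Pth1r, Ibsp, Alpl and Col2a1. How often an Ihh transcript was missed in a cell that had one was not measured.

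Of the signalling loop, Ihh-positive cells were higher in the receptor of PTHrP, and Ihh-negative cells in the hedgehog co-receptors Gas1 and Cdon. Pth1r (chr9:110722085-110747145, minus strand), the receptor of PTHrP and parathyroid hormone, held 3228 UMIs over the Ihh-positive cells, with 5, 95 and 194 per cell. It held 77 UMIs over the Ihh-negative cells, with 0, 0 and 39 per cell. All 33 Ihh-positive cells held it and 5 of 32 Ihh-negative cells did, against 2.34% of neutrophil-type barcodes. The levels were 3141 CPM (3033 to 3251) and 172 CPM (135 to 214), a log2 ratio of 4.19 (3.87 to 4.54). It was 8.29 without the 2 cells lacking Prg4, 3.47 without the Ptprc limit and 4.21 with Ihh-positive cells set at 3 UMIs or more. Dividing the classes at 100 Ihh CPM gave 2.41, with weak Ihh-positive cells then counted as Ihh-negative (30 and 35 cells). The Prg4-poor chondrocytes had 442 CPM, so that Ihh-positive cells stood above them by 2.83 (2.74 to 2.92) on the log2 scale, and the Prg4-rich ones had 31.4 CPM.

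Pthlh, the ligand of Pth1r, held no UMI in the Ihh-positive cells (a limit of 2.92 CPM), 4 UMIs in the Ihh-negative cells and 57 in the Prg4-poor chondrocytes. The hedgehog receptor and target Ptch1 was at 52.5 CPM in the Ihh-positive cells and 149 CPM in the Prg4-poor reference, a log2 ratio of −1.50 (−1.94 to −1.10). Hhip, a membrane-bound antagonist that is itself a hedgehog target, held 2 UMIs in the Ihh-positive cells and 510 in that reference (−6.33, −9.38 to −4.47), and the target Gli1 held 1 and 52 UMIs. The cells that held the ligand were thus lower in these 3 target transcripts than the Prg4-poor chondrocytes. Of the 11 loop genes with enough UMIs in this comparison, 1 was higher besides Ihh, which the rule fixed, namely Pth1r, and 7 were lower by 2-fold or more, with a median of −1.50, against 5.43% and 15.1% of all genes. Disp1, which releases lipid-bearing hedgehog from the cell that makes it, was at 35.0 CPM in the Ihh-positive cells and 3.69 CPM in the Prg4-poor reference (3.25, 2.27 to 4.32). With 36 and 12 UMIs it was under the limit of 50 and is not among the 11.

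The hedgehog co-receptors Gas1 and Cdon were higher in both groups that held Prg4. Gas1 held no UMI in the Ihh-positive cells and 441 in the Ihh-negative cells, with 0, 7 and 67 per cell in 27 of the 32 (1.44% of neutrophil-type barcodes), at least 336-fold higher. Cdon was at 8.76 and 214 CPM, a log2 ratio of −4.61, and the signal transducer Smo at 27.2 and 89.1 CPM. The Prg4-rich chondrocytes were at 1470 CPM for Gas1, 259 CPM for Cdon and 94.3 CPM for Smo, near the Ihh-negative levels. The Prg4-poor chondrocytes were at 14.8 CPM for Gas1, 25.2 CPM for Cdon and 59.1 CPM for Smo, and the Ihh-positive cells were below them by 2-fold or more in Cdon (−1.53) and Smo (−1.12). Boc, another co-receptor, had too few UMIs to be counted between the classes (7 and 13). It was at 6.81 CPM in Ihh-positive, 29.0 CPM in Ihh-negative, 23.1 CPM in Prg4-poor and 70.1 CPM in Prg4-rich cells. Ptch1 did not differ between the classes beyond counting error (log2 ratio 0.31, −0.47 to 1.15), and Gnas, which couples Pth1r to cyclic AMP, was at 1744 and 1290 CPM. Of 7 loop genes counted between the classes, Pth1r was higher besides Ihh, which defined them, and 3 were lower, against 17.0% and 13.1% of all genes.

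**Figure D2:**
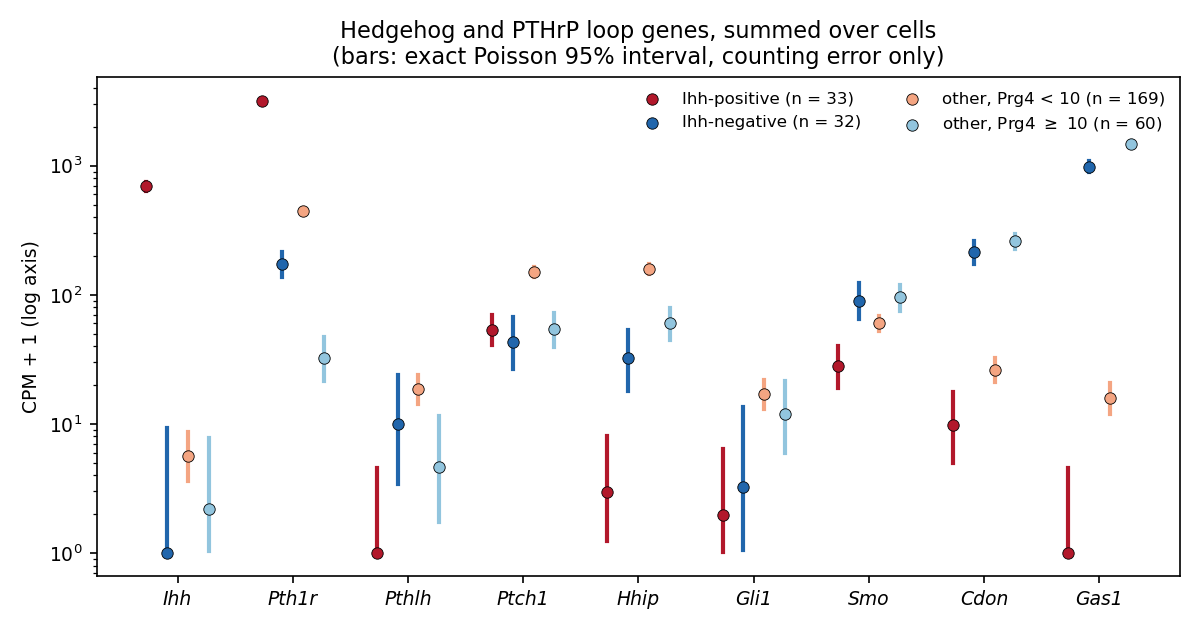
Level in CPM plus 1 (logarithmic axis) of 9 genes of the hedgehog and PTHrP loop in the Ihh-positive cells, the Ihh-negative cells and the 2 groups of other chondrocytes, with exact Poisson 95% intervals. Pth1r is at 3141 CPM in Ihh-positive cells, Hhip at 1.95 CPM there and 157 CPM in the Prg4-poor chondrocytes, and Gas1 at 982 CPM in Ihh-negative cells with no UMI in Ihh-positive cells.

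Genes of the hypertrophic and mineralising matrix were mostly higher in the Ihh-positive cells. Of 16 such genes with enough UMIs, 11 were higher and 3 lower by 2-fold or more than in the Ihh-negative cells, with a median log2 ratio of 1.98, against 17.0% and 13.1% of all genes. Col10a1, a gene of the rule, is among the 11. With the other scaling 10 were higher and 3 lower. Against the Prg4-poor chondrocytes, 9 of 17 were higher, among them Col10a1, which the reference had to lack, and 2 lower, the 2 being Bglap and Bglap2. The shares of all genes there were 5.43% and 15.1%. Without the 9 Col1a1-rich cells 11 of 16 were higher and none lower, Col10a1 included.

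Ibsp (chr5:104299171-104311469, plus strand), bone sialoprotein, which nucleates mineral, held 7260 UMIs in the Ihh-positive cells, with 0, 110 and 1327 per cell. It held 1079 UMIs in the Ihh-negative cells, 778 of them in 1 cell. The levels were 7064 CPM (6902 to 7228) and 2403 CPM, a log2 ratio of 1.56 (1.46 to 1.65) that was 4.06 without the 2 cells lacking Prg4 and 1.28 without the Ptprc limit. The references stood at 1267 CPM (Prg4-poor) and 5595 CPM (Prg4-rich). The Ihh-positive cells were above theirs by a log2 ratio of 2.48, or 3.17 without its 9 Col1a1-rich cells (788 CPM). The Ihh-negative cells were below theirs, with a log2 ratio of −1.22 (−1.32 to −1.12). Of the 4629 Prg4-rich UMIs, 1916 lay in the 2 Col1a1-rich cells, without which that reference was at 3794 CPM and the log2 ratio was −0.66, short of 2-fold. Both ratios include the 2 Ihh-negative cells lacking Prg4, which held 778 and 132 of the 1079 UMIs. Without them the Ihh-negative level was lower and the shortfall larger. After thinning, an Ibsp UMI was held by 74.7% of Ihh-positive and 25.8% of Ihh-negative cells, and by 14.2% of Prg4-poor chondrocytes, 49.9% of Prg4-rich ones and 1.69% of neutrophil-type barcodes. Unthinned, these shares were 84.8%, 31.3%, 17.8%, 53.3% and 3.40%. Alpl, the phosphatase that frees phosphate for mineral, was steadier, with 4, 51 and 81 UMIs in the 33 Ihh-positive cells and UMIs in 7 Ihh-negative cells (2.80% of neutrophil-type barcodes). Its log2 ratio was 2.77 (2.48 to 3.07), and 5.93 without the 2 cells. Panx3, a channel of hypertrophic chondrocytes, held 459 and 13 UMIs (3.95), with all 13 in the 2 cells lacking Prg4 (11 and 2). Smpd3, a sphingomyelinase needed for mineralisation, was at 1171 and 111 CPM (3.40). Mgp, an inhibitor of cartilage mineralisation, was at 8960 CPM in the Ihh-positive cells and 760 CPM in the Ihh-negative cells, a log2 ratio of 3.56. The Ihh-negative cells were also below the Prg4-rich chondrocytes in Mgp, at 760 against 9269 CPM.

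The 3 genes on the other side, Slc20a1, Ank and Enpp1, handle phosphate and pyrophosphate. Slc20a1, a phosphate importer, was at 62.3 CPM in the Ihh-positive and 824 CPM in the Ihh-negative cells, a log2 ratio of −3.73. Ank, which exports pyrophosphate, was at 56.4 and 247 CPM (−2.13), and Enpp1, which makes it, at 95.4 and 245 CPM (−1.36). Vegfa, the vascular growth factor, was at 273 and 243 CPM and so did not differ between the classes beyond counting error. Both classes were above their reference in Vegfa, by 1.22 (1.00 to 1.45) against the Prg4-poor and by 1.02 (0.61 to 1.43) against the Prg4-rich chondrocytes. Col10a1 aside, it was the only gene of the list that was higher by 2-fold in the Ihh-negative cells than in the Prg4-rich chondrocytes, where 4 of 11 were lower, against 3.51% and 5.3% of all genes. Without the 2 Col1a1-rich cells of that reference, 3 of 11 were higher and 3 lower.

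Genes of late hypertrophy were held in quantity by few Ihh-positive cells, and the sets of cells named here were drawn after their values had been seen. Spp1, osteopontin, held 4926 UMIs, of which 4821 lay in 6 cells with 117 to 1752 each, while the median of all 33 was 1. An Spp1 UMI was held by 51.5% of Ihh-positive cells and by 42.6% of neutrophil-type barcodes. Mmp13, the collagenase of the last hypertrophic stage, held 283 UMIs, 182 of them in 1 cell and 280 in 4 cells, and none in the Ihh-negative cells (limit 6.68 CPM). The cell with 182 Mmp13 UMIs also held 2961 Hbb-bs UMIs, and without cells of 1000 or more Hbb-bs UMIs Mmp13 was at 106 CPM in place of 275. The same cell held the most Spp1 UMIs (1752) and the fewest Pth1r UMIs (5), and the values below include it. The 6 Spp1-rich cells held 5, 33.5 and 83 Pth1r UMIs, against 42, 114 and 194 in the other 27, and 5 of the 6 held Mmp13 against 2 of 27. Their Ihh values, at 4, 23.5 and 71 UMIs, overlapped those of the others at 1, 13 and 60. Over the 33 cells Spearman's rho of Spp1 with Pth1r CPM was −0.53, a description of cells that shared 1 pool and differed in depth.

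**Figure D3:**
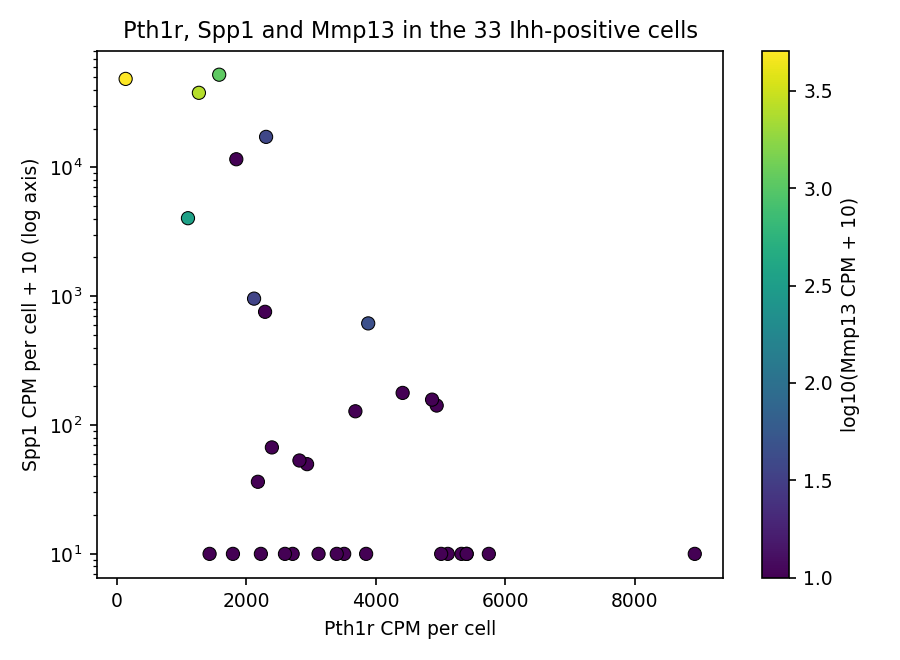
Pth1r CPM against Spp1 CPM plus 10 (logarithmic axis) in each of the 33 Ihh-positive cells, coloured by the logarithm of Mmp13 CPM plus 10. The 6 Spp1-rich cells hold 5 to 83 Pth1r UMIs, and those with most Mmp13 are among the lowest in Pth1r.

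Of 5 osteoblast markers with enough UMIs, 4 were higher by 2-fold or more in the Ihh-positive than in the Ihh-negative cells (Bglap2, Bglap, Smpd3 and Phex) and none was lower, with a median log2 ratio of 3.40, against 17.0% and 13.1% of all genes. Against the Prg4-poor chondrocytes, 2 of 9 were higher in the Ihh-positive cells (Phex and Smpd3) and 5 lower, with a median of −2.54, against 5.43% and 15.1% of all genes. Without the Col1a1-rich cells of that reference 4 of 7 were higher and 1 lower, with a median of 1.32. The whole list of 9 summed to 2797 and 579 CPM. Col1a1, the main collagen of bone, held 12 UMIs in the Ihh-positive and 7 in the Ihh-negative cells, against 4057 CPM in the Prg4-poor chondrocytes. That reference level came from the 9 Col1a1-rich cells, and the other 160 were at 66.0 CPM. Bglap, osteocalcin, held 742 UMIs in 28 of 33 Ihh-positive cells, with 0, 6 and 173 per cell, and 23 UMIs in the Ihh-negative cells. Of these, 456 UMIs lay in 3 cells with 129, 154 and 173 each, which held 1 Col1a1 UMI between them. After thinning, 54.9% of Ihh-positive cells and 2.03% of neutrophil-type barcodes held a Bglap UMI. Sp7, a factor of osteoblasts and hypertrophic chondrocytes, held 34 UMIs in the Ihh-positive cells and none in the Ihh-negative cells.

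Cartilage matrix genes were higher in the Ihh-positive than in the Ihh-negative cells for 17 of 26 genes and lower for 4, with a median log2 ratio of 1.87, against 17.0% and 13.1% of all genes, and these counts were 17 or 18 and 4 under the other scaling and without the doubted cells. Matn1 (chr4:130944385-130955475, plus strand), a matrilin that links collagen fibrils and proteoglycans, held 791 UMIs in the Ihh-positive cells, with 0, 20 and 115 per cell. It held 4 UMIs in the Ihh-negative cells, all of them in 1 cell that lacked Prg4. The log2 ratio was 6.43 (5.07 to 8.31), and 6.50 with Ihh-positive cells set at 3 UMIs or more. It was 3.62 with the classes divided at 100 Ihh CPM, where weak Ihh-positive cells counted as Ihh-negative. A UMI was held by 84.8% and 3.13% of cells, against 0.529% of neutrophil-type barcodes. Matn1 was also 3.75 above the Prg4-poor chondrocytes on the log2 scale, at 770 against 57.3 CPM. Matn3 ran otherwise, at 1592 CPM in the Ihh-positive cells and 2357 CPM in the Prg4-poor chondrocytes, and 136 CPM in the Ihh-negative cells. Most Ihh-negative Matn3 UMIs lay in the 2 cells lacking Prg4 (18 and 39).

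The fibrillar collagen Col2a1 gave 428, 1665 and 2870 UMIs per Ihh-positive cell and 0, 23 and 1412 per Ihh-negative cell, of which 10 held fewer than 10. Its log2 ratio was 2.55, and 3.85 without the 2 cells lacking Prg4. Col9a1, of the type IX collagen on the fibril surface, was at 4420 and 430 CPM (3.36), the link protein Hapln1 at 9195 and 1922 CPM, and Comp, which binds collagen, at 9537 and 2956 CPM. The proteoglycan Acan differed less, at 6846 and 4419 CPM (0.63), and was at 2279 CPM in the Prg4-rich chondrocytes. The 4 genes on the other side were Dcn, Ucma, Prelp and Chad. Dcn, a small proteoglycan of the fibril, was at 344 CPM in the Ihh-positive and 4196 CPM in the Ihh-negative cells (−3.61), and Chad at 4056 and 8426 CPM (−1.05).

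**Figure D4:**
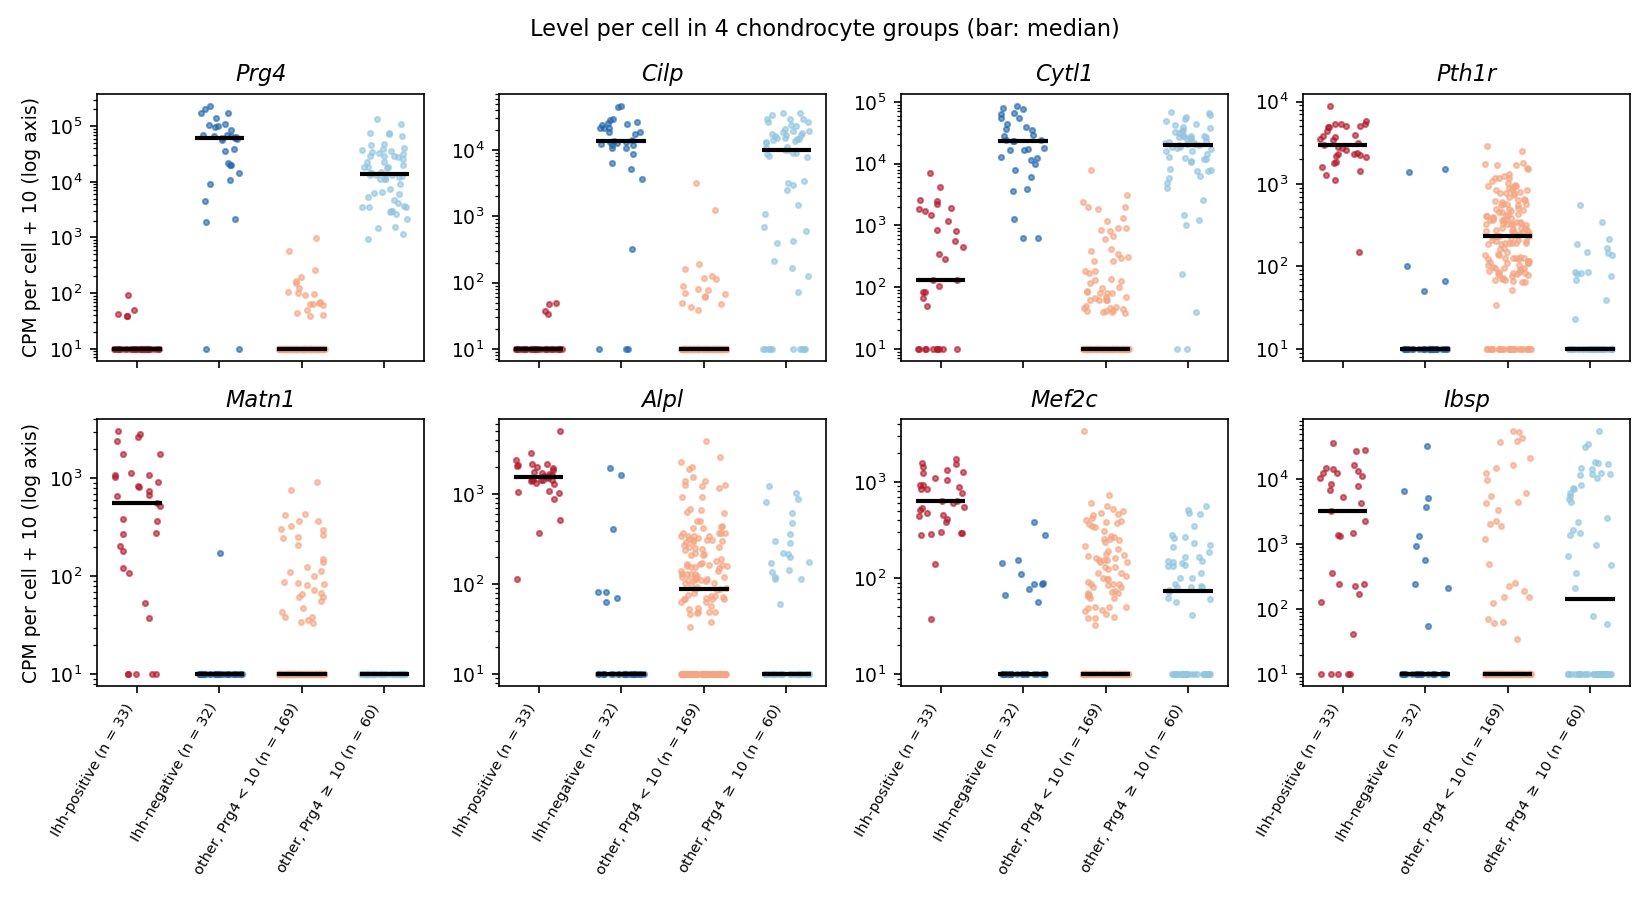
Level per cell in CPM plus 10 (logarithmic axis) of Prg4, Cilp, Cytl1, Pth1r, Matn1, Alpl, Mef2c and Ibsp, 1 point per cell, in the Ihh-positive cells, the Ihh-negative cells and the 2 groups of other chondrocytes, with bars at the medians. Pth1r and Alpl are held by all 33 Ihh-positive cells, whereas Prg4 and Cilp are held by most Ihh-negative cells and Ibsp spreads widely within the Ihh-positive cells.

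Among 20 skeletal transcription factors, 6 were higher and 8 lower in the Ihh-positive than in the Ihh-negative cells, against 17.0% and 13.1% of all genes (363 and 595 genes with the other scaling). Mef2c, which drives hypertrophy, was at 754 and 57.9 CPM (log2 ratio 3.70) and at 102 CPM in the Prg4-poor chondrocytes. A Mef2c UMI was held by 34.4% of Ihh-negative cells and by 32.3% of neutrophil-type barcodes. Runx2 held 103 and 5 UMIs (3.17), its relative Runx3 79 and 2 UMIs (4.11), the homeobox factor Irx5 was at 157 and 11.1 CPM (3.81), and Foxa2, a hypertrophy factor, at 46.7 and 4.45 CPM. Runx2 was near the Prg4-poor level of 84.7 CPM, whereas Mef2c, Irx5 and Foxa2 were above theirs by 2-fold or more. Sox9, which holds the chondrocyte programme, was at 865 and 2976 CPM (−1.78), with its partners Sox5 (−1.53) and Sox6 (−1.29) lower as well. Runx1, at 65.2 and 477 CPM (−2.87), and Foxo1, at 93.4 and 428 CPM (−2.19), were lower too. Against the Prg4-rich chondrocytes the Ihh-negative cells had no factor of 17 higher and 1 lower (Shox2), near the 3.51% and 5.3% of all genes.

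Of the BMP and TGF-beta genes, 4 of 18 were higher in the Ihh-positive cells, a share near the 17.0% of all genes, and 8 were lower, against 13.1%. The BMP antagonists were split, with Nog at 73 and 2 UMIs and Grem1 at 0 and 512 UMIs, of which 47% lay in 1 cell. The ligand Bmp2 was at 294 and 849 CPM (−1.53), and Inhba, a subunit of activin, held 4 and 553 UMIs (−8.31). Bmp6, another ligand, was at 79.8 CPM in the Ihh-positive cells and 3.69 CPM in the Prg4-poor chondrocytes, a log2 ratio of 4.43. In the Wnt group, 4 of 8 genes were higher and 3 lower, against the same shares of all genes. The ligand Wnt4 was at 214 and 20.1 CPM (3.42), Wnt5b held 78 UMIs against none (at least 11.4-fold higher), and the Wnt inhibitor Wif1 was at 20.4 and 786 CPM (−5.27). Tcf7l2, a nuclear effector of Wnt, was at 275 CPM in Ihh-positive cells and 24.9 to 48.4 CPM in the other 3 groups.

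Osteoprotegerin (Tnfrsf11b), the decoy receptor for the osteoclast factor RANKL, was at 70.1 CPM in the Ihh-positive and 898 CPM in the Ihh-negative cells (−3.68). RANKL itself (Tnfsf11) held 1 and 0 UMIs. Igf1 held no UMI in the 65 cells and 221 in the Prg4-poor chondrocytes, a level at least 26.9-fold higher in the other chondrocytes. Of 10 IGF genes, none was higher and 5 were lower in the 65 cells than in all other chondrocytes, against 3.94% and 9.74% of all genes. Lox, which crosslinks collagen, was at 38.0 and 702 CPM (−4.21), with the Ihh-negative cells also above the Prg4-rich chondrocytes at 160 CPM. Its relative Loxl4 ran the other way between the classes, at 540 and 109 CPM (2.31), and both classes were above their reference in Loxl4. The Ihh-positive cells were below the Prg4-poor chondrocytes in Lox by 2-fold or more.

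Mmp14 (chr14:54431612-54445364, plus strand), the membrane-bound protease whose 1 allele was floxed, was scarce. It held 40 UMIs in 14 of 33 Ihh-positive cells and 3 UMIs in 3 of 32 Ihh-negative cells, or 38.9 CPM (27.8 to 53.0) and 6.68 CPM. The shares of cells were 42.4% (25.5 to 60.8%) and 9.38%, against 1.97% of neutrophil-type barcodes, and after thinning 12.3% of Ihh-positive and 1.91% of Ihh-negative cells held one. The log2 ratio of 2.54 ran from 0.89 to 4.88, and was 1.42 without the Ptprc limit. It was 2.51 with Ihh-positive cells set at 3 UMIs or more and 1.14 with the classes divided at 100 Ihh CPM. The Prg4-poor chondrocytes were at 74.8 CPM, −0.94 on the log2 scale for the Ihh-positive cells against them. The counts do not separate the floxed from the intact allele. Whether Cre had cut the floxed allele in a cell was not tested, and the groups differed in the Cre reporter shares given below. Of 8 proteases and inhibitors, 3 were higher (Mmp13, Adamts1 and Serpinh1) and 2 lower in the Ihh-positive than in the Ihh-negative cells, against 17.0% and 13.1% of all genes. Timp3, an inhibitor of such proteases, was at 1521 CPM in the Ihh-positive cells and 410 CPM in the Prg4-poor chondrocytes.

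Cell cycle genes were mostly lower in the Ihh-positive cells than in the Prg4-poor chondrocytes. Of 19 genes, 15 were lower and 2 higher by 2-fold or more (median −2.73), against 15.1% and 5.43% of all genes. The 2 higher genes were the inhibitors Cdkn1c and Cdkn1a. Cdkn1c was at 2736 CPM in the Ihh-positive cells, 306 CPM in the Prg4-poor chondrocytes and 301 CPM in the Ihh-negative cells, a log2 ratio of 3.16 to the reference. Ccnd1, a G1 cyclin, was at 17.5 and 199 CPM in Ihh-positive and Prg4-poor cells (−3.51). Of the 41 Mki67 UMIs of the Ihh-positive cells, 36 lay in 1 cell that held 2007 Hbb-bs UMIs, and of the 30 in the Ihh-negative cells, 26 lay in 1 cell that held 3386. Without cells of 1000 or more Hbb-bs UMIs, 5 and 3 Mki67 UMIs remained, and 16 of the cell cycle genes were lower than in the reference.

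By a fixed rule on fold and on spread over cells, the genes most above the Ihh-negative cells were Matn1, Il17b, Slc38a4, Pla2g10, Car12, Fscn1, Capn6, Syt8, Pkdcc and Ppa1. Il17b, a cytokine, held 456 and 4 UMIs (5.64), and Ppa1, a pyrophosphatase, 3258 and 47 UMIs (4.92). The genes most below were Prg4, Cilp, Cilp2, Gas1, Sbsn, Vcan, Inhba, Clu, Cxcl14 and Scara3. Clu, the chaperone clusterin, held 13 and 1715 UMIs (−8.24), and the proteoglycan Vcan 1 and 145 UMIs (−8.37). Clu was at 235 CPM in the Prg4-poor and 6448 CPM in the Prg4-rich chondrocytes, so it lay with Prg4 there also.

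Against all other chondrocytes, the genes by which the 65 cells stood highest were Pla2g10, Hpgd, Aldh1a3, Nrgn, Wnk4, Slco2b1, Cds1, Gmpr, Otud1 and Gm45397. Pla2g10, a secreted phospholipase that frees arachidonic acid, held 100 UMIs in the 65 cells and none in the 229, a log2 ratio of at least 6.52. All but 1 of these UMIs lay in 17 Ihh-positive cells. Hpgd, which breaks down prostaglandins, held 359 UMIs in the Ihh-positive cells, 14 in the Ihh-negative cells and 29 in the 229 other chondrocytes, a log2 ratio of 5.15 for the 65 cells. Aldh1a3, which makes retinoic acid, was held by both classes, at 303 and 118 CPM, and by the 2 references at 5.23 and 23.0 CPM. The genes by which they stood lowest were H19, Batf, Spon1, Fstl1, Apoe, Pcp4, C1qtnf3, Kif26b, Antxr1 and Col1a2. H19, an imprinted non-coding RNA, held no UMI in the 65 cells and 682 in the others, at least 82.4-fold lower, and the lipid carrier Apoe was at −4.38. Of all genes in this comparison 3.94% were higher and 9.74% lower. Of 17 hypertrophic genes 9 were higher, among them Col10a1, which the rule fixed, and 2 lower (Bglap and Bglap2). In the 229 other chondrocytes, 14095 Bglap UMIs lay in 11 cells with 100 or more Col1a1 UMIs. Of 27 cartilage matrix genes 1 was higher (Matn1), which is the share of all genes, and 5 were lower. Of 19 cell cycle genes 1 was higher and 12 lower.

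The genes whose level went most closely with Ihh over the 65 cells, of 2798 ranked, were Ccdc80 (Spearman's rho 0.84), Pth1r (0.84), Nrgn (0.81), Runx2 (0.80) and Rpl15 (0.80), and Clu went most against it (−0.84). These values mostly follow the class, which Ihh defined, and the cells shared 1 pool. Within the 33 Ihh-positive cells, the genes of 3744 nearest to Ihh were Tspan3 (0.70), Pla2g16 (0.67), Gm42418 (0.66), Pla2g10 (0.64) and Cytl1 (0.64). Gm42418 overlaps ribosomal RNA sequence, so its reads are uncertain.

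Ihh-positive cells also varied in Col10a1 and Ibsp. The 3 of them without Col10a1 held 5, 7 and 13 Ihh UMIs, 55 to 172 Pth1r UMIs, 48 to 106 Matn3 UMIs and 20 to 35 Panx3 UMIs, but 1 Ibsp UMI in all and no Cytl1. At the other end, 17 of the 33 held 100 or more Ibsp UMIs. Over the 33, Ibsp CPM went with Col10a1 CPM (rho 0.71). Matn3 CPM went against Ihh CPM (rho −0.47), while Matn1 CPM went with Ibsp CPM (rho 0.59).

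The lineage reporter was read through WPRE, the 3′ element of the tdTomato transcript, and the study's limit of more than 14 UMIs was used. Ihh-positive cells held 755 WPRE UMIs, with 0, 11 and 98 per cell, and Ihh-negative cells held 1264, with 0, 45 and 127 per cell. More than 14 were held by 15 of 33 (45.5%, 28.1 to 63.6%) and 21 of 32 (65.6%, 46.8 to 81.4%). Without cells of 1000 or more Hbb-bs UMIs the shares were 41.9% and 63.3%. The Ihh-positive cells were the deeper ones, and per summed UMIs the levels were 735 and 2815 CPM. At 4000 UMIs per cell the limit was passed by 0.18% (0 to 10.6%) and 35.4% (18.6 to 53.2%). This is a description only, since the highest WPRE level in an Ihh-positive cell was 2372 CPM, at which more than 14 of 4000 UMIs are rarely reached. The limit was passed by 4 of 169 Prg4-poor chondrocytes (2.37%), 3 of 60 Prg4-rich ones (5.0%) and 3 of 1323 neutrophil-type barcodes (0.227%). Of the 4 Prg4-poor cells, 3 were among the 9 Col1a1-rich ones, and 1 of the other 160 passed (0.625%). Of the 30 Ihh-negative cells that held Prg4, 20 passed it. At 4000 UMIs per cell, 64.6% of Ihh-positive and 71.0% of Ihh-negative cells held at least 1 WPRE UMI, against 11.3% of Prg4-poor and 23.9% of Prg4-rich chondrocytes and 16.2% of neutrophil-type barcodes. Unthinned, the 5 shares were 75.8%, 75.0%, 32.5%, 45.0% and 38.8%. Since Cre was driven by Col10a1 and the cells were chosen partly by Col10a1, the high share is not independent of the rule.

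**Figure D5:**
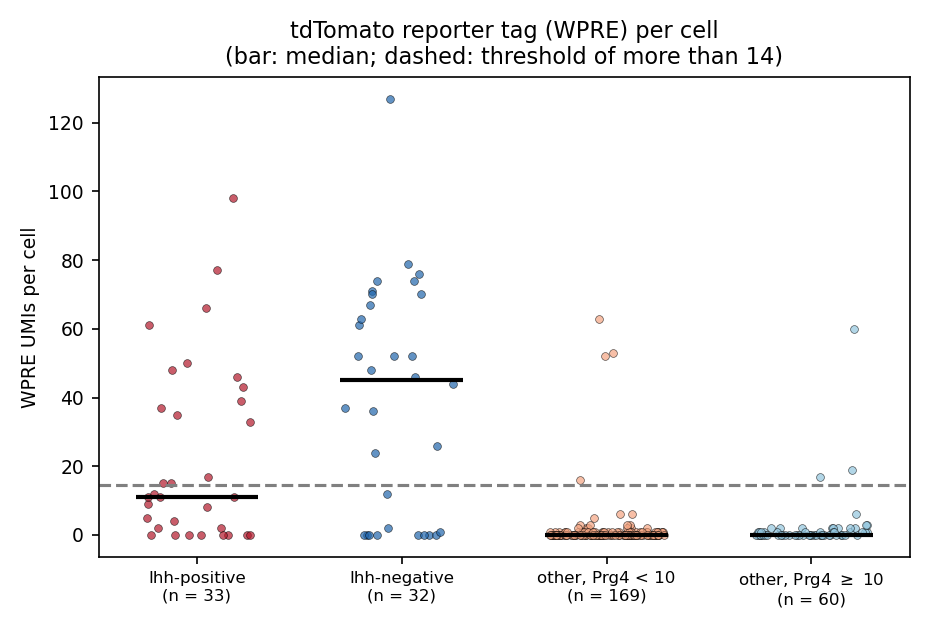
WPRE UMIs in each Ihh-positive cell, Ihh-negative cell and other chondrocyte of either Prg4 group, 1 point per cell, with bars at the medians and a dashed line at the limit of 14 UMIs. The limit is passed by 15 of 33 Ihh-positive and 21 of 32 Ihh-negative cells, against 4 of 169 and 3 of 60 other chondrocytes.

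Within the Ihh-positive class WPRE went with Col10a1 and Ibsp. Its rho over the 33 cells was 0.62 with Col10a1, 0.56 with Ibsp, 0.43 with Ihh and −0.58 with Matn3, all on CPM. The 8 cells without WPRE held 0, 3 and 135 Ibsp UMIs and 11, 76 and 106 Matn3 UMIs, while the 15 above the limit held 6, 281 and 620 Ibsp UMIs and 0, 38 and 66 Matn3 UMIs. The median depth of these 2 sets was 33710 and 33916 UMIs. All 4 cells with 10 or more Mmp13 UMIs were above the limit. Among the 30 Ihh-negative cells with Prg4, rho of WPRE was 0.30 with Col10a1 and −0.11 with Prg4. GFP, the Col1a1 reporter, held 1 UMI in the Ihh-positive and none in the Ihh-negative cells, against 756 UMIs in 5 other chondrocytes. Of these 756, 754 lay in cells with 100 or more Col1a1 UMIs.

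The Ihh-negative cells were then set against the Prg4-rich chondrocytes, where 3.51% of all genes were higher and 5.3% lower by 2-fold or more. Of 5 articular markers 1 was higher by 2-fold or more (Prg4, which chose the reference) and none lower, and of 24 cartilage matrix genes 4 were higher and 3 lower. Those 4 rested on the 2 cells lacking Prg4, since without them none of 23 was higher and 7 were lower. Of 7 IGF genes none was higher and 3 binding proteins were lower (Igfbp5, Igfbp6 and Igfbp7). Of 11 hypertrophic and mineralising genes 2 were higher, Col10a1 of the rule and Vegfa, and 4 lower (Mgp, Ibsp, Ank and Spp1). Ibsp fell short of 2-fold without the 2 Col1a1-rich cells of the reference. That holds with the 2 Ihh-negative cells lacking Prg4 kept in, which held 778 and 132 Ibsp UMIs, most of the Ihh-negative total. Of 5 cell cycle genes 2 were higher, Cdkn1c and Mki67, with 66.7% and 86.7% of their Ihh-negative UMIs in 1 cell each. The reference had to hold 10 Col2a1 UMIs while the Ihh-negative cells did not (10 of 32 held fewer), and 87 barcodes rich in Prg4 and low in Col10a1 were left out of it for lower Col2a1. The part of this choice in the matrix values was not tested. Lox (2.14), Vcan (1.43), Inhba (1.17) and Grem1 (2.96) were higher on the log2 scale, and Col1a2, at 336 and 3490 CPM, was lower (−3.38). Col10a1 in the 30 Prg4-holding cells reached 100 UMIs in 5, which held 23 to 504 Prg4 UMIs and no Pth1r, Matn1 or Panx3 UMI.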

How the data were processed

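The authors aligned reads to mm10 with the reporter sequences and deposited 1 pooled matrix of UMI counts per gene and barcode (Cell Ranger 3.1.0 and Seurat 3 per the labels), with a second matrix of reporter counts. The sources used here do not name an annotation release for the counting. Positions are from GENCODE M21, in which 30934 of 31053 gene identifiers matched. The members and gene lists were chosen with earlier results of these data known. Barcodes were selected and UMIs summed in Python 3.11.15 (numpy 2.4.6, scipy 1.17.1, pandas 2.3.3), and the scripts were tested on simulated data. Scrublet (scanpy 1.11.5, expected rate 6%) called 445 of 12564 barcodes (3.54%), which were kept. Barcodes held 500 to 103543 UMIs, 91463572 in all. A gene was counted as higher or lower at a 2-fold CPM ratio with at least 50 UMIs over both groups. A group at 0 UMIs was set at 3 UMIs for a bound. Thinning took 4000 UMIs per cell in 100 draws, leaving out no chondrocyte.

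Genes were named from the lists, and as the 10 with the largest ratio in each direction with UMIs in at least 25% of the cells of the higher group and no cell above 30% of its UMIs, without the genes of the rule, mitochondrial or sex-linked transcripts. The 5 genes nearest to Ihh were ranked among genes in at least 50% of cells. Alternatives covered the limits on cells, the Ihh class, doublets, cell weight, depth, scaling and the count filter.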

Additional observations from a re-analysis of the deposited data

How the results depend on the processing

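The log2 ratios of Pth1r, Mmp14, Ibsp and Matn1 kept their direction under every alternative tried. Of 150 recomputed values, 120 stayed within 1.5 times the reported count or within the counting interval of the reported ratio or share, and 30 did not. The count of genes higher in Ihh-positive than Ihh-negative cells (557) was 343 with Ihh-positive cells set at 100 Ihh CPM or more, 170 at equal depth, 363 with the total without abundant genes, 974 from 20 UMIs and 1632 from 1 UMI. The count lower (428) was 107 at equal depth, 881 from 20 UMIs and 4419 from 1 UMI. Against other chondrocytes, the count higher in the 65 cells (297) was 122, 473 and 3591 and the count lower (734) was 165, 1389 and 1981 under these last 3 settings. At equal depth fewer genes reach 50 UMIs. The setting at 100 Ihh CPM moved the weakest Ihh-positive cells into the Ihh-negative class (30 and 35 cells). The log2 ratio of Ibsp (1.56) was 1.28 without the Ptprc limit and with the total without abundant genes, 1.97 with Ihh-positive cells set at 100 Ihh CPM or more, 2.21 with equal weight per cell, 2.22 at equal depth, 1.32 without its top cell and 4.06 without the 2 Ihh-negative cells lacking Prg4. That of Pth1r (4.19) was 3.47 without the Ptprc limit, 2.41 at 100 Ihh CPM, 5.11 with equal weight, 5.06 at equal depth and 8.29 without those 2 cells, and that of Matn1 (6.43) was 3.62 at 100 Ihh CPM. The share above 14 WPRE UMIs was 0.18% of Ihh-positive (45.5%) and 35.4% of Ihh-negative cells (65.6%) at equal depth, where the limit of 14 is harder to reach, and 66.7% of Ihh-positive cells above 4 UMIs. Settings that left out the 2 cells, cells rich in Hbb-bs or Col1a1-rich cells, and the division of other chondrocytes by Prg4, were chosen after seeing the data. No paired analysis was possible because all samples are 1 group and no test was made. With 1 pool, differences between mice cannot be told apart from differences between cells, and intervals cover counting error only.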
